A study of Rattus norvegicus with 12 samples.

Results

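The libraries described here are the 6 made from primary rat midbrain astrocytes after 3 h or 6 h with PT109B, out of 12 in the series. Within each of these times 1 library lay far from the other 2: replicate 3 at 3 h and replicate 1 at 6 h, called the divergent libraries below. Replicates 1 and 2 at 3 h and replicates 2 and 3 at 6 h are called the concordant libraries. The 2 divergent libraries were chosen by their measured values, from all genes, so the differences between libraries of the same time are a description and carry no test. The astrocytes came from newborn wild-type Sprague-Dawley rats and were grown with fetal bovine serum. All 9 treated libraries received the same dose, 10 µM of PT109B, a compound known here by its code name, for 1.5, 3 or 6 h. The 3 control libraries are labelled 0 h, and each group had 3 libraries. Nothing in the labels says whether replicates were separate cultures or animals, so every p-value below measures only library-to-library spread and may reflect technical variation.

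Dividing cells carry transcripts that are made only in certain phases. Genes for DNA synthesis are switched on around S phase by E2F factors, and genes for the mitotic spindle and chromosome segregation later, through promoters that often hold a CHR element and CCAAT boxes. Cells short of amino acids or under other stress translate the factor ATF4, which drives amino acid transporters, asparagine synthetase and tRNA-charging enzymes, a programme called the integrated stress response. Immediate early genes such as the Nr4a and Egr families respond within minutes to growth factor and stress signals, with no need for new protein.

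The deposited table held 9721 genes, only part of a rat genome, and 9491 passed the low-count filter; other genes were not analysed here. Total counts ran from 9368967 to 12498047 per library, with 10767842 in the divergent 3 h library and 11160963 in the divergent 6 h library, both inside the range of the rest. The trimmed-mean scaling factors (TMM) were 0.830 and 0.849 in the concordant and 1.01 in the divergent 3 h library. At 6 h they were 0.901 and 0.918 against 1.05. The 50 most abundant genes took 23.0% and 22.6% of counts in the concordant 3 h libraries and 20.0% in the divergent one, and 22.4% and 21.7% against 18.7% at 6 h. Astrocyte markers were abundant in every library. Gfap, the intermediate filament of astrocytes, was lowest at 934 counts per 1000000 (CPM, on TMM-scaled library sizes) in the concordant 6 h replicate 2 and highest at 3295 CPM at 1.5 h.

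The divergent libraries were closer to each other than to their own time. Across genes, log2 CPM of the divergent 3 h and 6 h libraries correlated at r = 0.9725. The divergent 3 h library correlated with its concordant partners at 0.933 and 0.9325, which correlated with each other at 0.9862. At 6 h the matching values were 0.9359 and 0.9365 against 0.9846. The concordant 3 h libraries correlated with the concordant 6 h libraries at 0.9661 to 0.9675. These values were above those of each with the divergent library of its own time. The divergent libraries also lay nearer the controls (0.9506 to 0.9551 at 3 h and 0.9382 to 0.9417 at 6 h) than the concordant libraries did (0.8873 to 0.9067). Replicate 3 at 1.5 h, a treated library, was nearer still to both, at 0.9671 for the divergent 3 h and 0.9469 for the divergent 6 h library. Genes within a library are not independent, so these values describe the libraries only.

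A gene's difference was taken as log2 CPM of the divergent library minus the mean of the concordant libraries of the same time. The absolute difference had a median of 0.43 at 3 h and 0.40 at 6 h, while the concordant libraries of a time differed from each other by a median of 0.13 at both times. Of 9491 genes, 89.6% lay outside the concordant values at 3 h and 89.3% at 6 h. Any library would lie outside its partners for most genes even where all are alike, so these shares do not measure divergence alone. The difference at 3 h and that at 6 h, which share no library, correlated across genes at r = 0.77 (Spearman 0.75), as the plot of one against the other shows. Since the libraries were chosen for standing apart, this likeness is a description.

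**Figure D1:**
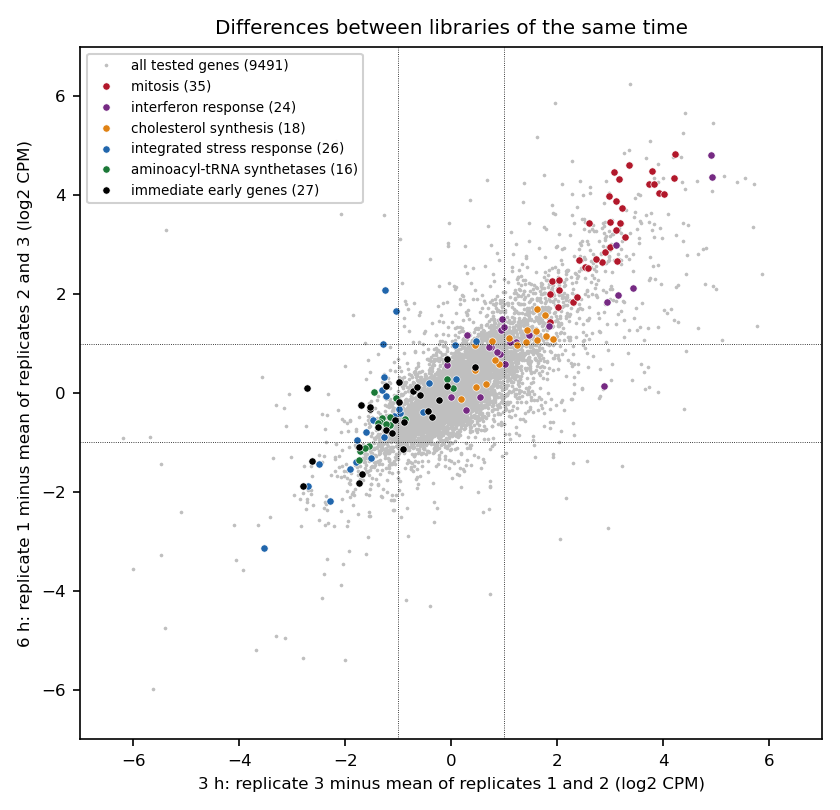
Difference in log2 CPM between the divergent library and the mean of the concordant libraries at 3 h (horizontal axis) and at 6 h (vertical axis); each point is 1 of 9491 tested genes, with members of 6 gene lists coloured and dotted lines at 2-fold. All 35 mitosis genes sit in the upper right, and most integrated stress response and aminoacyl-tRNA synthetase genes lie left of 0 on the 3 h axis.

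A gene was counted as apart where the divergent library was at least 2-fold above, or below, the nearer of the concordant libraries at both times. This held for 599 higher genes, 6.31% of those tested, and 211 lower genes, 2.22%. With library-size scaling the counts were 834 and 135, and on log2(FPKM + 1) they were 366 and 54, so the direction split depends on scaling. The median difference over all genes shifted from 0.01 to 0.25 with library-size scaling and to 0.18 on log2(FPKM + 1). At 3 h alone 985 genes were higher and 453 lower, and at 6 h 864 and 358. The concordant libraries of a time, by comparison, were 2-fold apart from each other in 347 genes at 3 h and 357 at 6 h. Of genes higher at 3 h 60.8% were also higher at 6 h, which is 69.3% of those higher at 6 h. For lower genes the shares were 46.6% and 58.9%. Without the 2-fold limit, 34.3% of all genes lay above and 34.3% below both concordant libraries at both times, the shares against which the looser counts below are to be read.

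Over these genes together the divergent libraries stood near the control level and the concordant libraries away from it, though single genes varied. The 599 higher genes had a median log2 CPM of 3.72, 3.73 and 3.58 in the controls, 3.60 in the divergent 3 h library and 3.63 in the divergent 6 h library. In the concordant libraries the median was 1.48 and 1.48 at 3 h and 1.49 and 1.48 at 6 h. Between 560 and 578 of the 599 genes lay below every control in each concordant library, against 220 in the divergent 3 h library and 253 in the divergent 6 h library. In the divergent libraries 229 and 186 of them lay inside the control range and 150 and 160 above it. Of the 211 lower genes, 185 to 206 lay above every control in each concordant library. Their medians were 3.16 to 3.40 in controls, 3.20 and 3.08 in the divergent libraries, and 5.07, 5.01, 4.68 and 4.71 in the concordant libraries. In the divergent 3 h library 78 of the 211 lay below every control, 83 inside the control range and 50 above it. In the divergent 6 h library these counts were 107, 56 and 48. By choice of libraries the members had to differ, so these levels place the difference but do not test it.

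Genes of mitosis differed most. All 35 listed genes were at least 2-fold higher in the divergent library at both times, against 6.31% of all genes, with a median difference of 3.02 on the log2 scale beside 0.01 for all genes. Cenpf, a kinetochore protein that peaks in late S phase and mitosis, stood at 109, 105 and 86.2 CPM in untreated astrocytes. At 3 h its level was 3.74 and 2.86 CPM in the concordant libraries and 62.2 CPM in the divergent one, and at 6 h 1.85 and 1.83 against 53.7 CPM. Thus the divergent libraries were below every control, and the concordant libraries lay far below both with no overlap.

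Top2a, the topoisomerase that untangles sister chromatids, gave the same order. It was at 288, 300 and 196 CPM in controls, 13.6 and 12.2 against 172 CPM at 3 h, and 7.49 and 7.54 against 142 CPM at 6 h. Mki67, the proliferation antigen, was at 301 to 374 CPM in controls, 15.5 and 9.35 against 183 CPM at 3 h, and 9.34 and 9.83 against 159 CPM at 6 h. The cyclins followed. Ccnb1, the mitotic partner of Cdk1, was at 7.87 and 6.93 against 59.1 CPM at 3 h and at 4.41 and 7.43 against 63.5 CPM at 6 h, with controls at 78.2 to 102 CPM. Cdca8, a subunit of the chromosomal passenger complex, differed least of the list and was still apart, with 9.24 and 8.58 against 32.6 CPM at 3 h and 11.3 and 14.1 against 34.2 CPM at 6 h. The sum over the 35 genes was 2428 to 3391 CPM in controls, 253 and 287 CPM in the concordant 3 h libraries and 1928 CPM in the divergent one, and 229 and 253 against 1874 CPM at 6 h. In these bulk samples, fewer dividing cells and less of these RNAs per cell cannot be told apart.

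Many promoters of the listed mitosis genes shared letters. The share given for a list, here and below, follows from its membership alone. It would be the same whatever the libraries showed, so it lends no weight to the differences between them. The CHR letters TTTGAA, searched on both strands from 250 bases before to 50 bases after the RefSeq start site (GRCr8), occurred in 23 of the 31 mitosis promoters found, 74.2%, against 11.6% of the promoters of all tested genes and 18.1% of all 27457 promoters. The CCAAT letters occurred in 71.0% of them, against 36.9% of tested genes and 37.7% of all promoters, and both motifs together in 54.8%, against 4.69% and 7.25%. Among all genes at least 2-fold higher in the divergent libraries the CHR share was 26.2%, and among those lower it was 11.8%. A match describes letters and is not a binding site. By the smaller of its gaps at the 2 times, Cenpf was first of the genes ranked. These have a symbol and at least 5 CPM in the higher libraries. The promoter of Cenpf is shown because it holds 1 CHR match and 3 CCAAT matches, in capitals, on the minus strand at chr13:103760837-103761136.
Cenpf: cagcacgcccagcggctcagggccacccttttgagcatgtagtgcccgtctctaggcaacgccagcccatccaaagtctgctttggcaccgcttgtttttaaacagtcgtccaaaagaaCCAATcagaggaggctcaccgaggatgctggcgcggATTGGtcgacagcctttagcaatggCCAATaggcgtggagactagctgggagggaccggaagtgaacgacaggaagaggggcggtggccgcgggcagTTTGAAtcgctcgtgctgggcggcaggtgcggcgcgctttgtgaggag

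**Figure D2:**
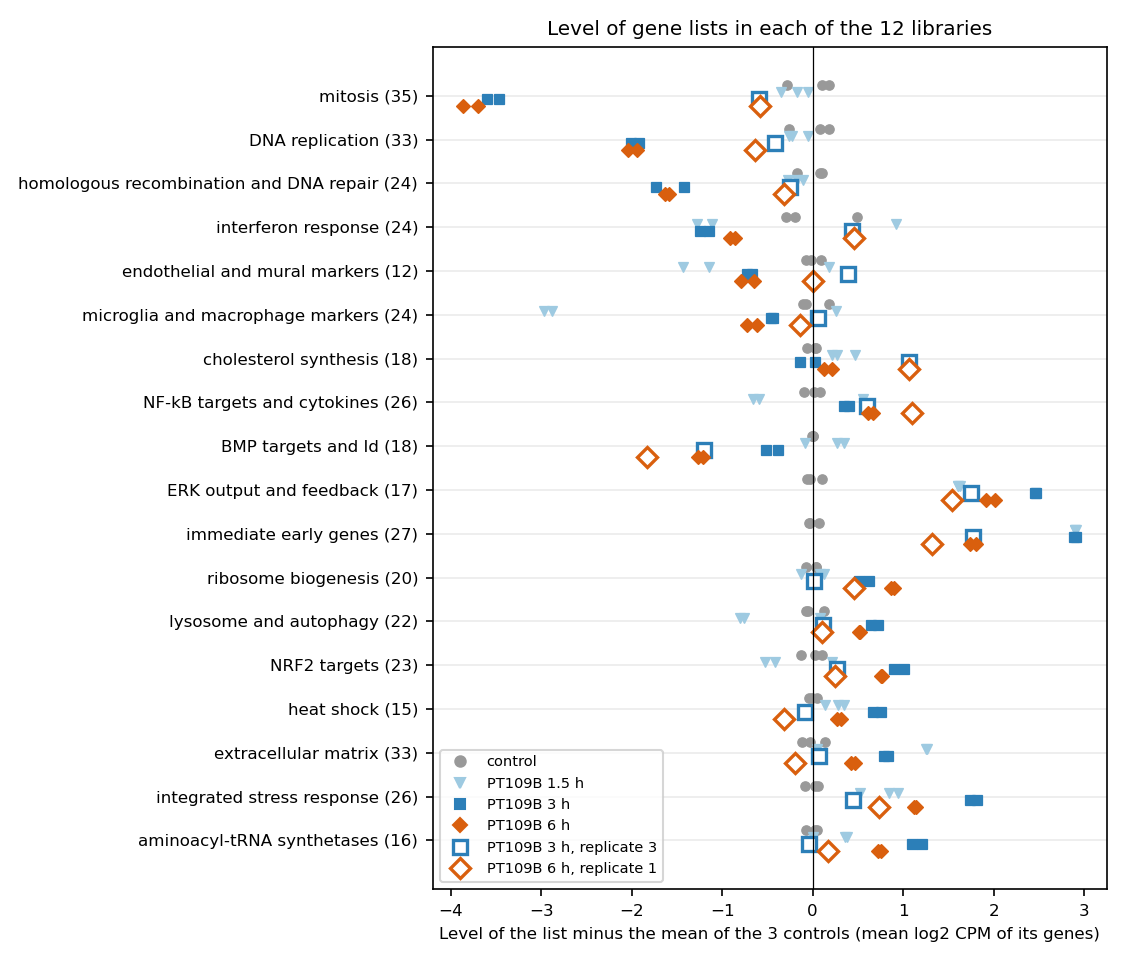
Level of 18 gene lists in each of the 12 libraries, as mean log2 CPM of the list's tested genes (number in brackets) minus the mean of the 3 controls; each symbol is 1 library and the large open symbols are the divergent libraries. For mitosis the divergent libraries sit near the controls and the concordant libraries far to the left, while for cholesterol synthesis only the divergent libraries sit near 1.

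Genes of DNA replication differed in the same direction but less. Of 33 tested, 17 were at least 2-fold higher in the divergent libraries at both times, against 6.31% of all genes, and all 33 lay above both concordant libraries at both times, against 34.3% of all genes (median difference 1.20). Rrm2, the regulated subunit of ribonucleotide reductase, was at 420, 427 and 306 CPM in controls, 29.9 and 33.2 against 284 CPM at 3 h, and 19.4 and 26.3 against 242 CPM at 6 h. Tk1, the S phase thymidine kinase, was at 11.5 and 12.1 against 93.1 CPM at 3 h and at 9.85 and 11.3 against 72.8 CPM at 6 h. Both genes were thus far lower in the concordant libraries, with no overlap. Mcm2, a subunit of the replicative helicase, differed least. It was at 132, 146 and 112 CPM in controls, 68.7 and 70.7 against 87.0 CPM at 3 h, and 65.3 and 69.4 against 77.7 CPM at 6 h, so all 6 libraries lay below the controls.

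Upstream regulators and repair genes were split. Of 17 genes of G1/S control and E2F, 6 were higher by the 2-fold rule (Ccne2, E2f2, E2f7, E2f8, Foxm1 and Mybl2), against 6.31% of all genes, and the median difference was 0.42. E2f8, a repressor that is itself made in S phase, was at 0.492 and 0.660 against 9.25 CPM at 3 h and 0.205 and 1.03 against 8.65 CPM at 6 h. Ccnd2, a D-type cyclin, showed no such difference, with 459 and 517 against 558 CPM at 3 h and 519 and 484 against 429 CPM at 6 h. Of 24 genes of homologous recombination and repair, 13 were higher, also against 6.31%, among them Brca1 and Brca2 (median difference 1.42). Fanci, a Fanconi anaemia protein of crosslink repair, was at 6.88 and 5.50 against 40.03 CPM at 3 h and 3.08 and 3.89 against 34.1 CPM at 6 h, with controls at 40.8 to 52.6 CPM. Ddb2, a sensor of ultraviolet damage, was nearest 0, at 8.85 and 8.14 against 8.89 CPM at 3 h and 6.67 and 5.94 against 6.42 CPM at 6 h.

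E2F letters (TTTCCCGC, TTTGGCGC or TTTCGCGC on either strand) occurred in 13 of 28 replication promoters, 46.4%, against 3.43% of tested genes and 1.82% of all promoters. In mitosis promoters their share was 3.23%, and the CHR letters occurred in 10.7% of replication promoters, so the lists differ in the letters they hold. Among all genes at least 2-fold higher in the divergent libraries the E2F share was only 4.92%, and among those lower it was 0.658%. Pole2, a subunit of the leading-strand polymerase with E2F letters in capitals, is shown from the minus strand at chr6:93435312-93435611. It was at 0.197 and 0.550 against 5.96 CPM at 3 h and 0.821 and 0.457 against 5.74 CPM at 6 h.
Pole2: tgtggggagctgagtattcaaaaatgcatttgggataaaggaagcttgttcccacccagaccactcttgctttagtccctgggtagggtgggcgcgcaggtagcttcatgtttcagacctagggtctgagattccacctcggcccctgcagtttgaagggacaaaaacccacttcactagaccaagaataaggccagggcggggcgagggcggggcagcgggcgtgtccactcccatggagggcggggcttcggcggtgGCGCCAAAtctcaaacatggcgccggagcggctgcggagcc

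Growth-arrest genes had no common direction, though Cdkn1a and Mdm2 were lower in the divergent libraries. Cdkn1a, the CDK inhibitor p21, was at 270, 270 and 274 CPM in controls, 1101 and 1067 against 539 CPM at 3 h, and 707 and 709 against 358 CPM at 6 h. The divergent libraries were therefore above the controls and below the concordant ones at both times. Mdm2, the p53 antagonist that p53 induces, was at 684 and 661 against 247 CPM at 3 h and at 348 and 311 against 176.2 CPM at 6 h. That divergent 6 h value lay just above the controls (170.2 to 175.8 CPM). None of the 23 genes of this list passed the 2-fold rule, 12 lay below and 6 above both concordant libraries at both times, against 34.3% of all genes each way, and the median difference was -0.42 at 3 h and -0.09 at 6 h.

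Genes of the integrated stress response were lower in the divergent libraries. Of 26 genes, 7 were at least 2-fold lower at both times (Asns, Atf5, Phgdh, Slc3a2, Slc7a3, Slc7a11 and Stc2), against 2.22% of all genes, with a median difference of -1.28 at 3 h and -0.39 at 6 h. Without the limit 17 lay below and 3 above both concordant libraries. Atf5, a stress-induced transcription factor, was at 41.6, 38.4 and 39.8 CPM in controls, 370 and 334 against 30.3 CPM at 3 h, and 219 and 200 against 23.6 CPM at 6 h. Asns, asparagine synthetase, was at 82.3, 96.3 and 87.6 CPM in controls, 678 and 637 against 101 CPM at 3 h, and 496 and 468 against 130 CPM at 6 h. The divergent libraries were below every control for Atf5 and above every control for Asns. For both genes the concordant libraries were several-fold above control. Slc3a2, the heavy chain of amino acid exchangers, was at 972 to 1164 CPM in controls, 4786 and 4377 against 1213 CPM at 3 h, and 3411 and 3214 against 1146 CPM at 6 h. Ddit3, the stress factor CHOP, was less apart, at 20.4 and 18.4 against 9.71 CPM at 3 h and 11.9 and 11.1 against 9.16 CPM at 6 h. Cebpb, another stress-linked factor, was at 146 and 140 against 107 CPM at 3 h and 92.8 and 95.3 against 108 CPM at 6 h.

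Aminoacyl-tRNA synthetases, which load amino acids onto tRNA, were lower too. Of 16 tested, 4 were at least 2-fold lower at both times, against 2.22% of all genes, and 13 lay below and 1 above both concordant libraries, against 34.3% each way; the median difference was -1.33 at 3 h and -0.59 at 6 h. Lars1, for leucine, was at 242, 243 and 234 CPM in controls, 786 and 726 against 227 CPM at 3 h, and 595 and 538 against 220 CPM at 6 h. Qars1, for glutamine, was the exception nearest 0, at 297 and 293 against 302 CPM at 3 h and 250 and 247 against 268 CPM at 6 h. Ribosome biogenesis genes differed by less: none of 20 passed the 2-fold rule, yet 19 lay below both concordant libraries at both times, against 34.3% of all genes (median difference -0.53). Nop56, a nucleolar protein of ribosomal RNA processing, was at 95.8 to 127 CPM in controls, 184 and 172 against 105 CPM at 3 h, and 288 and 272 against 176 CPM at 6 h.

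The letters TGATGNAA, a form of the element that ATF4 and C/EBP partners bind, occurred in 6 of 11 synthetase promoters found, 54.5%, against 2.08% of tested genes and 3.82% of all promoters, and in 13.0% of integrated stress response promoters. Among all genes at least 2-fold lower in the divergent libraries the share was 5.26%, and among those higher it was 2.11%. The promoter of Nars1, the asparagine enzyme, is shown with its match in capitals, from the minus strand at chr18:60275733-60276032. Nars1 was at 305 to 328 CPM in controls, 961 and 890 against 315 CPM at 3 h, and 790 and 733 against 360 CPM at 6 h.
Nars1: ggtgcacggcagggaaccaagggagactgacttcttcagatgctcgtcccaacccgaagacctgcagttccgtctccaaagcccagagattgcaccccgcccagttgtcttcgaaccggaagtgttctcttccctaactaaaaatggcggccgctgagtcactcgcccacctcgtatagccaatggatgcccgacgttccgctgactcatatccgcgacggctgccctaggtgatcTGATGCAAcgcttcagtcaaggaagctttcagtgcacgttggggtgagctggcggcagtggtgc

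**Figure D3:**
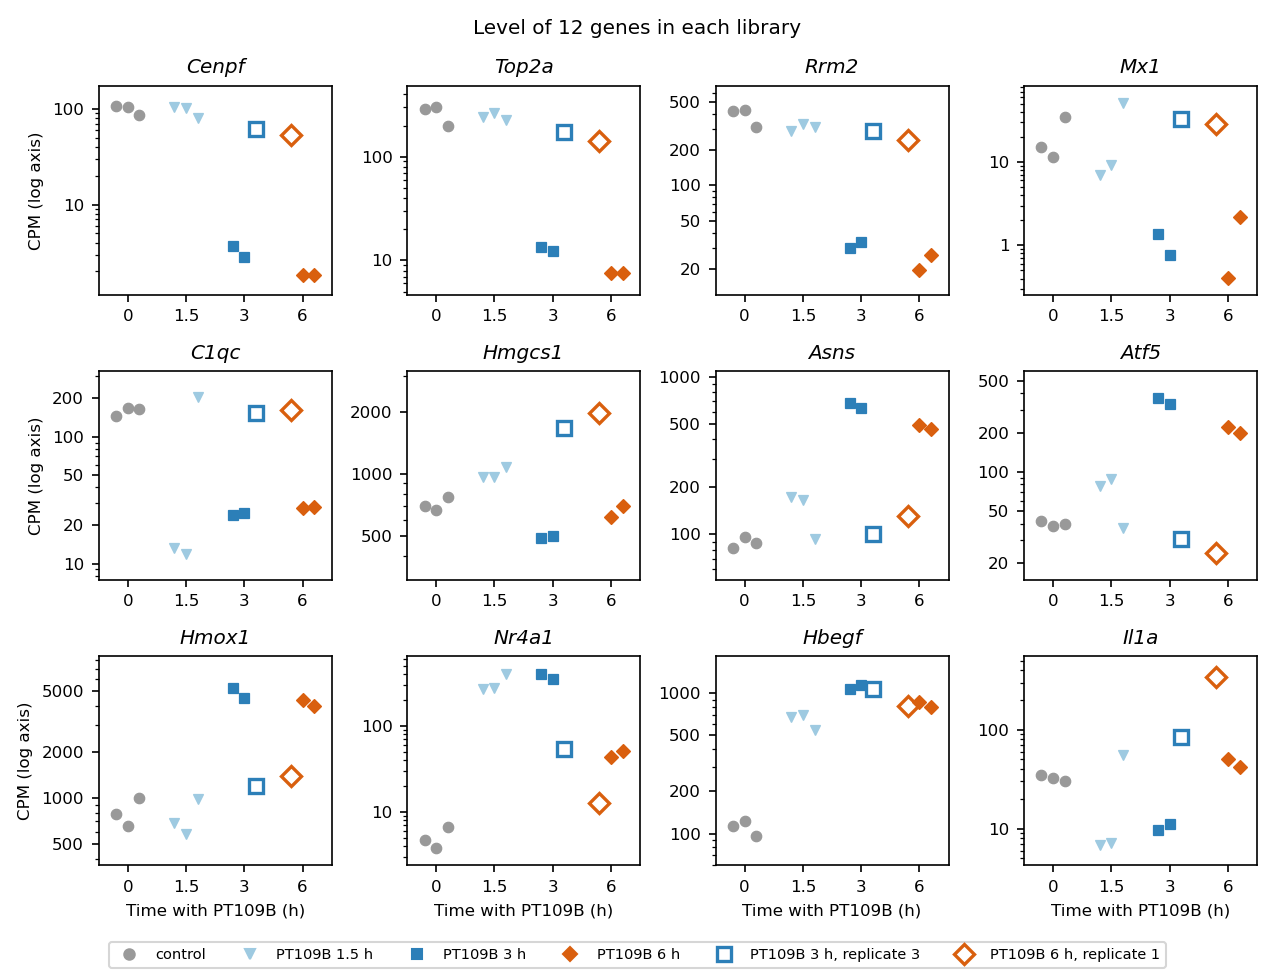
Level of 12 genes in each library in CPM on log axes, against time with PT109B; each symbol is 1 library and the large open symbols are the divergent libraries. Cenpf, Top2a, Rrm2, C1qc, Asns, Atf5 and Hmox1 show divergent libraries closer to the controls than the concordant ones are, Hmgcs1 shows them above all others, and Hbegf shows no gap between libraries of the same time.

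Oxidative stress, lysosomal and heat shock genes were often lower in the divergent libraries too, read against 2.22% of all genes for the 2-fold rule and 34.3% for lying below both concordant libraries. Of 23 NRF2 targets, 4 were apart (Hmox1, Akr1b8, Srxn1 and Slc7a11) and 18 lay below and 2 above both concordant libraries at both times (median difference -0.42). Hmox1, the haem-degrading enzyme, was at 779, 658 and 994 CPM in controls, 5248 and 4459 against 1187 CPM at 3 h, and 4341 and 3976 against 1390 CPM at 6 h. Sqstm1, the autophagy receptor p62, was at 4341 and 3854 against 1752 CPM at 3 h and 3283 and 3272 against 1722 CPM at 6 h, above controls at 1184 to 1445 CPM in all 6 libraries. Of 22 lysosome and autophagy genes, 17 lay below and 3 above both concordant libraries at both times and 2 were apart, 1 of them Atp6v0d2, a proton pump subunit, at 54.5 and 39.6 against 2.66 CPM at 3 h and 33.0 and 37.1 against 5.48 CPM at 6 h. Of 15 heat shock genes, 13 lay below both concordant libraries and 2 were apart. Hspa1a, the inducible HSP70, was at 25.3 to 29.6 CPM in controls, 428 and 384 against 80.4 CPM at 3 h, and 132 and 125 against 20.6 CPM at 6 h.

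Matrix genes were mostly lower in the divergent libraries, and growth factors were mixed. Of 33 extracellular matrix genes, 7 were lower by the 2-fold rule and 1 (Col6a3) higher, against 2.22% and 6.31% of all genes, and 26 lay below and 5 above both concordant libraries (median difference -0.83). Thbs1, the matricellular thrombospondin, was at 347 to 540 CPM in controls, 1232 and 1085 against 308 CPM at 3 h, and 486 and 426 against 106 CPM at 6 h. Fbln5, an elastic fibre protein, was at 99.7 and 95.2 against 13.7 CPM at 3 h and 77.1 and 76.1 against 11.8 CPM at 6 h, with controls at 10.1 to 18.5 CPM. Of 25 growth factors 4 were lower by the 2-fold rule, against 2.22%, while 12 lay below and 5 above both concordant libraries, against 34.3% each way. The first of them was Fgf7, the keratinocyte growth factor, at 31.8 and 27.9 against 5.22 CPM at 3 h and 20.0 and 21.8 against 3.51 CPM at 6 h. Fgf7 stood at 14.3 to 18.3 CPM in controls, so its divergent values were below control. Mmp13, a collagenase, was at 49.8 and 55.5 against 4.86 CPM at 3 h and 64.7 and 68.7 against 11.6 CPM at 6 h. Apold1, a vascular early response gene, had the largest lower difference of the genes ranked, at 41.4 and 57.2 against 3.76 CPM at 3 h and 64.1 and 72.0 against 1.80 CPM at 6 h, with controls at 1.67 to 3.42 CPM.

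Immediate early genes stood above control in the divergent libraries as well. Their mean level was 4.12 to 4.23 log2 CPM in controls, 7.06 and 7.08 against 5.94 at 3 h, and 5.98 and 5.91 against 5.48 at 6 h. Of 27, 5 were at least 2-fold lower than the concordant libraries at both times, against 2.22% of all genes, and the median difference was -1.07 at 3 h and -0.33 at 6 h. Nr4a1, an orphan nuclear receptor, was at 4.71, 3.86 and 6.69 CPM in controls, 406 and 357 against 54.9 CPM at 3 h, and 43.2 and 51.3 against 12.8 CPM at 6 h. Even the lower, divergent values were above every control. Dusp5, a phosphatase that feeds back on ERK, was at 12.8 to 16.9 CPM in controls, 535 and 567 against 210 CPM at 3 h, and 242 and 247 against 156 CPM at 6 h. Lif, a cytokine of the IL-6 family, was at 52.3 to 57.6 CPM in controls, 1101 and 1094 against 657 CPM at 3 h, and 696 and 683 against 868 CPM at 6 h, so its order turned between the times. The mean level of the 17 genes of ERK output was 5.39 to 5.55 in controls, 7.90 and 7.92 against 7.20 at 3 h, and 7.46 and 7.37 against 6.99 at 6 h, in log2 CPM.

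Some genes had left the control level in every library of a time. Hbegf, the heparin-binding EGF-like ligand, was at 113, 123 and 95.3 CPM in controls, 1074 and 1144 against 1064 CPM at 3 h, and 863 and 804 against 812 CPM at 6 h. Vegfa, the vascular growth factor, was at 25.9 to 34.0 CPM in controls, 90.3 and 93.4 against 97.9 CPM at 3 h, and 59.1 and 53.3 against 60.1 CPM at 6 h. For both genes the divergent libraries lay above every control, close to the concordant ones. Id3, an inhibitor of differentiation factors and a BMP target, was at 443 to 506 CPM in controls, 121 and 116 against 78.2 CPM at 3 h, and 93.5 and 102 against 116 CPM at 6 h. All 6 libraries were below every control, with the divergent one lowest at 3 h and highest at 6 h. In the fit of all 12 libraries Hbegf rose 3.31 ± 0.15 (log2 fold change ± SE, edgeR adjusted p = 1.6e-06) at 3 h, and Id3 fell by 2.17 ± 0.17 (adjusted p = 3.6e-05).

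Cholesterol synthesis had another pattern, with the divergent libraries above all others. Of 18 genes, 6 were at least 2-fold higher (Cyp51, Dhcr7, Hmgcs1, Idi1, Mvd and Nsdhl), against 6.31% of all genes, and 17 lay above both concordant libraries at both times, against 34.3% (median difference 1.11). The mean log2 level of the list was 6.76, 6.84 and 6.86 in controls, 6.68 and 6.84 against 7.88 at 3 h, and 6.94 and 7.03 against 7.88 at 6 h. Hmgcs1, which makes HMG-CoA for the mevalonate pathway, was at 701, 666 and 774 CPM in controls, 489 and 498 against 1676 CPM at 3 h, and 620 and 695 against 1969 CPM at 6 h.

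Interleukin-1 genes were also highest in the divergent libraries. Il1a was at 35.1, 32.4 and 30.4 CPM in controls, 9.73 and 11.1 against 83.6 CPM at 3 h, and 50.6 and 42.1 against 344 CPM at 6 h. Il1b was at 77.9 to 101 CPM in controls, 77.5 and 75.7 against 289 CPM at 3 h, and 121 and 121 against 489 CPM at 6 h. These were the only 2 of 26 NF-kB targets and cytokines that passed the 2-fold rule, against 6.31% of all genes. Csf3, the granulocyte growth factor, did not differ so, at 14.3 and 13.3 against 12 CPM at 3 h and 30.9 and 31.4 against 36.5 CPM at 6 h.

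Interferon response genes were higher in the divergent libraries, in a group whose controls already varied. Of 24 genes, 8 were apart, against 6.31% of all genes, and 20 lay above both concordant libraries at both times, against 34.3% (median difference 1.12). Mx1, an antiviral GTPase, was at 15.2, 11.6 and 34.8 CPM in controls, 1.38 and 0.770 against 32.3 CPM at 3 h, and 0.410 and 2.17 against 28.2 CPM at 6 h. At 1.5 h Mx1 was at 6.94, 9.10 and 50.9 CPM, so replicate 3 stood apart there. Rsad2, the antiviral enzyme viperin, was at 6.14 to 19.5 CPM in controls, 1.48 and 1.65 against 17.2 CPM at 3 h, and 2.67 and 2.06 against 10.4 CPM at 6 h. Irf8, a myeloid transcription factor, was nearest 0, at 20.5 and 23.5 against 26.6 CPM at 3 h and 13.0 and 10.3 against 9.07 CPM at 6 h.

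Markers of other cells moved with the split. All 24 microglia and macrophage markers were detected in every library, with a lowest count of 5 (P2ry12), and 17 were above and 5 below both concordant libraries at both times, against 34.3% of all genes each way (median difference 0.57). By the 2-fold rule 4 were higher and 1 lower, against 6.31% and 2.22%. Their summed level was 3829 to 4640 CPM in controls, 3442 and 3456 against 4294 CPM at 3 h, and 3107 and 3016 against 4040 CPM at 6 h. At 1.5 h it was 488, 478 and 4952 CPM in replicates 1 to 3. The 24 did not share a direction. C1qc, a complement subunit made by microglia, was at 24.1 and 25.2 against 153 CPM at 3 h and 27.4 and 27.9 against 163 CPM at 6 h, with controls at 146 to 167 CPM. Aif1, a defining microglia marker, was at 79.5 and 67.2 against 96.3 CPM at 3 h and 74.1 and 74.0 against 103 CPM at 6 h. Trem2, a lipid receptor of these cells named after its values were seen, was lower in the divergent libraries, at 103 and 96.5 against 54.1 CPM at 3 h and 79.3 and 77.5 against 49.3 CPM at 6 h. The part of these cells in the interferon, interleukin and complement differences was not tested.

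Of 12 endothelial and mural markers 4 were higher, against 6.31% of all genes, among them Cdh5, the cadherin of endothelial junctions, at 1.38 and 2.42 against 10.4 CPM at 3 h and 1.85 and 1.37 against 9.59 CPM at 6 h. Their summed level was 189 to 240 CPM in controls, 259 and 280 against 323 CPM at 3 h, and 279 and 257 against 297 CPM at 6 h. Of 15 fibroblast and meningeal markers 3 were lower, against 2.22% of all genes, and Col3a1, a fibrillar collagen, was at 844 and 863 against 364 CPM at 3 h and 512 and 572 against 289 CPM at 6 h. The part of these cells in the matrix differences was not tested. The fibroblast and matrix lists share genes, and Lum and Dcn were counted as lower in both.

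Neuronal and glial genes did not share a direction. Dcx, a microtubule protein of newborn neurons, was at 14.7, 14.8 and 7.48 CPM in controls, 0.295 and 0.440 against 8.24 CPM at 3 h, and 0.308 and 0.114 against 4.54 CPM at 6 h. Nefm and Nefl, the medium and light neurofilament subunits, ran opposite and are named after their values were seen. Nefm was at 182 to 201 CPM in controls, 706 and 612 against 180 CPM at 3 h, and 470 and 424 against 109 CPM at 6 h. Nefl was at 76.5 to 84.7 CPM in controls, 364 and 333 against 105 CPM at 3 h, and 324 and 318 against 96.4 CPM at 6 h. Tubb3, a neuronal tubulin, was at 40.5 to 54.0 CPM in controls, 182 and 167 against 71.8 CPM at 3 h, and 188 and 183 against 109 CPM at 6 h. Of the 20 neuron markers tested, 2 were thus higher and 2 lower by the 2-fold rule, against 6.31% and 2.22% of all genes. Of 14 astrocyte markers none passed it. Gfap was at 1340 and 1526 against 2450 CPM at 3 h and 934 and 1127 against 1558 CPM at 6 h, while Slc1a2, a glutamate transporter, was at 563 and 553 against 347 CPM and 449 and 440 against 298 CPM.

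The divergent libraries set much of the spread in the comparisons with control. With all 12 libraries, edgeR's quasi-likelihood test called 1281 genes risen (13.5%) and 754 fallen (7.94%) at 3 h, and 1771 risen (18.7%) and 1120 fallen (11.8%) at 6 h, at a Benjamini-Hochberg adjusted p below 0.05. Without replicate 3 of the 3 h group the 3 h calls went from 2035 to 3635, of which 1942 were shared. Leaving out any other library of this comparison gave 863 to 1016 calls. Without replicate 1 of the 6 h group the 6 h calls went from 2891 to 3872, with 2662 shared, and without any other library they were 1705 to 1869. Since the library left out was picked by its values, p-values without it are too small, and these counts describe how far the calls rest on it. The direction of the calls depended on scaling: with library-size scaling 650 rose and 1887 fell at 3 h and 1141 and 1799 at 6 h, and limma on log2(FPKM + 1) gave 689 and 2114 at 3 h and 1307 and 2032 at 6 h.

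**Figure D4:**
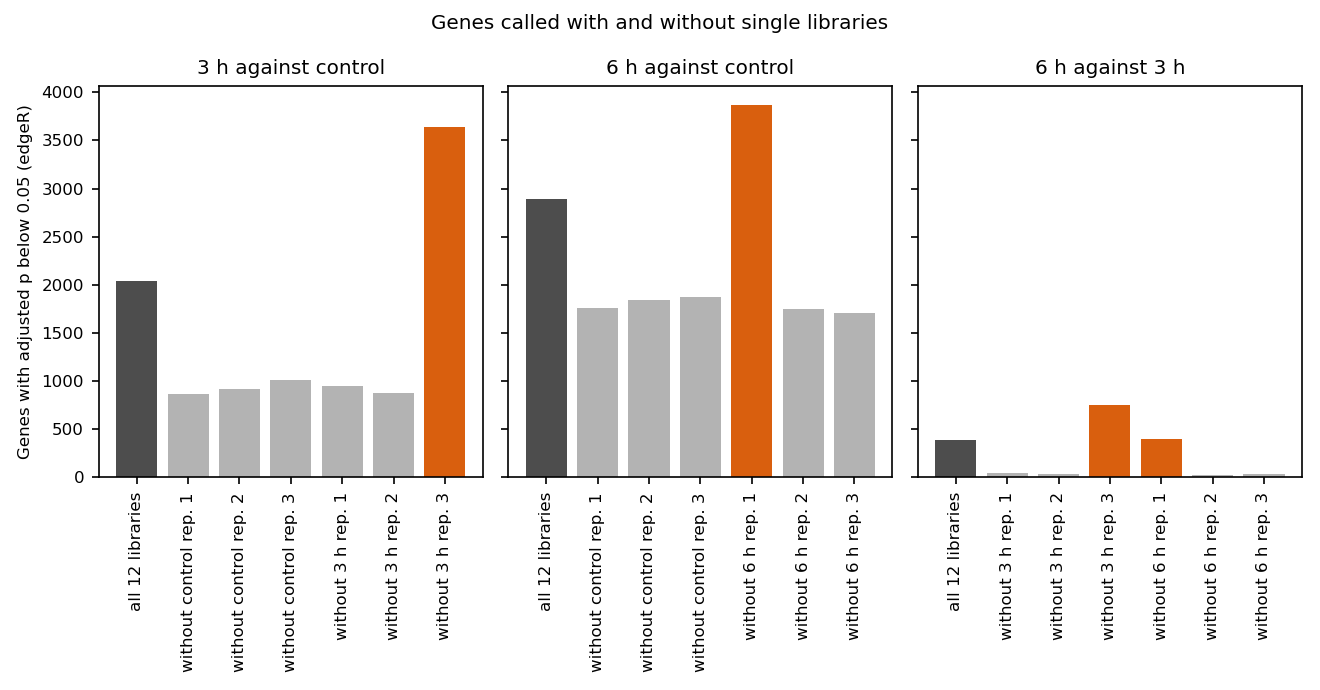
Number of genes with an edgeR adjusted p below 0.05 in 3 comparisons, with all 12 libraries (dark grey), without a divergent library (orange) and without each other library (light grey). Leaving out the divergent 3 h library raises the 3 h calls from 2035 to 3635, while leaving out any other library lowers them.

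Calls in the functions above differed with and without the divergent library. Over all genes the fits without it called 21.8% risen and 16.5% fallen at 3 h, and 22.9% and 17.8% at 6 h. Of 35 mitosis genes, 1 was called fallen at 3 h and 1 at 6 h with all libraries, and 35 at each time without the divergent library of that time. Cenpf had a log2 fold change of -2.12 ± 1.30 (SE, adjusted p = 0.25) at 3 h with all libraries and -4.91 (adjusted p = 0.025) without replicate 3. Of 33 replication genes 10 were called fallen at 3 h and 16 at 6 h, and 32 and 30 without the divergent library. Of 26 integrated stress response genes 14 were called risen at 3 h and 7 at 6 h, and 21 and 11 without it, while fallen calls numbered 0 and 1 with all libraries and 0 and 2 without. Asns rose 2.41 ± 0.67 (adjusted p = 0.030) at 3 h with all libraries and 2.89 (adjusted p = 0.0025) without replicate 3. Of 16 synthetases 3 were called risen at 3 h, and 14 without replicate 3. At 6 h none was called by edgeR with all libraries, while 6 had an unadjusted p below 0.05 and DESeq2 called 4, and 5 were called without replicate 1. Ribosome biogenesis calls went from 5 to 16 of 20 at 3 h and from 13 to 18 at 6 h.

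In other functions the number of calls in the direction given was nearly the same. Of 27 immediate early genes, 26 were called risen at 3 h both with and without replicate 3, the same 26 genes, and 23 and 22 at 6 h. Of 18 BMP targets and Id genes, 9 were called fallen at 3 h and 11 at 6 h in either case. Cholesterol synthesis had 3 of 18 called risen with and without the divergent library at each time, beside 13.5% and 18.7% of all genes with all libraries, and its fallen calls went from 0 to 1 at 3 h and from 0 to 2 at 6 h. Nr4a1 rose 5.75 ± 0.80 (adjusted p = 0.0010) at 3 h with all libraries and 6.24 (adjusted p = 0.00012) without replicate 3.

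Each later time held 1 divergent and 2 concordant libraries, so the comparison of 6 h with 3 h crosses the split. With all libraries 221 genes were called higher at 6 h (2.33%) and 163 lower (1.72%). With library-size scaling these were 382 and 132, and limma on log2(FPKM + 1) gave 402 and 118. Without both divergent libraries 1034 genes were called, 607 higher and 427 lower. Without the divergent 3 h library alone 753 were called, and without the divergent 6 h library alone 394. Leaving out any single concordant library left 22 to 49. Nr4a1 was lower at 6 h than at 3 h by the fit of all libraries, where it fell by 2.93 ± 0.69 (adjusted p = 0.044), and it was so in each kind of library. Slc1a5, a glutamine transporter with little gap between libraries of a time, was at 157 and 154 against 148 CPM at 3 h and 227 and 211 against 232 CPM at 6 h, and rose 0.55 ± 0.09 (adjusted p = 0.013) between the times.

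The 1.5 h libraries were not used to choose the divergent ones. Mitosis genes had mean levels of 5.93, 6.05 and 5.75 log2 CPM in replicates 1 to 3 at 1.5 h, near the controls at 6.20, 6.28 and 5.81. Cenpf was at 106, 103 and 80.7 CPM. The 1.5 h group was split too, in some functions with the same sign as at 3 h and 6 h and in others with the opposite sign. Replicate 3 minus the mean of replicates 1 and 2 had a median of 3.52 in microglia markers and 2.04 in interferon genes. It was -1.36 in matrix genes and -1.49 in actin and SRF targets, each with the sign seen later. The sign was opposite in NRF2 targets (0.64 at 1.5 h against -0.42 later) and lysosome and autophagy genes (0.72 against -0.50). So it was in oligodendrocyte (-1.61 against 0.40) and neuron markers (-0.98 against 0.45). Mitosis genes gave -0.27 at 1.5 h against 3.02 later. C1qc was at 13.2, 11.9 and 205 CPM at 1.5 h. The median log2 CPM of the 599 higher genes was 2.81, 2.83 and 3.59 at 1.5 h, and that of the 211 lower genes 4.08, 4.15 and 3.46. Taken gene by gene, replicate 3 minus the mean of replicates 1 and 2 had a median of only 0.08 over the higher genes. Over the lower genes this median was -0.55. Over both gene groups replicate 3 at 1.5 h was thus the one nearest the controls, while mitosis genes were close to control in all 3.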

How the data were processed

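For every library the authors deposited one estimated count (an expected count, not always whole) and one FPKM per gene, per the file headers. The submitters' processing notes name StringTie 2.2.1; how reads were aligned, and to which build, is not given in the sources used here. Per the labels' protocols, total RNA went into NEBNext Ultra libraries. Of the counts 9.49% were not whole (tolerance 1e-06, 1343 genes), so they were rounded; the tests had been laid out for whole numbers. Libraries were matched to groups and replicates by their labels. Counts from near-identical or overlapping genes may be split by the counting.

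In R 4.3.3, edgeR 4.0.16 filterByExpr removed 230 genes, and TMM scaling gave CPM and log2 CPM (prior count 0.5). Differences between libraries of a time use these values without a test. Comparisons of groups used robust edgeR quasi-likelihood fits to all 12 libraries with group as the only term, adjusted over 9491 genes; the script was checked on simulated counts. Alternatives were RLE and library-size scaling, no filter, DESeq2 1.42.0, limma 3.58.1 on the deposited FPKM values as log2(FPKM + 1) or log2(FPKM + 0.1), the replicate number as a block, 2-group fits and leaving out each library.

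The libraries, the 46 gene lists (822 of 1093 members tested), tests and rule for named genes were chosen with earlier results of these data known. Some genes are in more than 1 list, such as Slc7a11 in those of the integrated stress response and NRF2, and are counted in each. Genes named are the 12 with the largest gap each way at both times with at least 5 CPM in the higher libraries, up to 4 members of each list with the largest gap and the 1 nearest 0, those apart at 1 time only or in opposite directions (up to 6 each way), and a fixed set; members counted by the 2-fold rule are named where few, after their values were seen. Promoters of 300 bases come from RefSeq (GRCr8), found for 7309 of 9491 tested genes; motif shares count each of their 7269 promoters once. For 58 symbols on more than 1 line the line with the highest level was used.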

Additional observations from a re-analysis of the deposited data

Results flagged for a closer look

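In 10 genes the divergent library was at least 2-fold above the concordant libraries at one time and at least 2-fold below at the other; this difference between the times was not tested. Only Chac1, a glutathione-degrading enzyme of the stress response, and Tex52, MAST1 and 1 gene without a symbol had a count of 30 or more in any of the 6 libraries. Chac1 had 289 and 229 counts against 123 at 3 h, and 66 and 75 against 379 at 6 h. Tex52 had 20 and 6 counts against 0 at 3 h, and 0 and 0 against 38 at 6 h. MAST1, a kinase, had 3 and 3 counts against 30 at 3 h, and 15 and 11 against 2 at 6 h.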

How the results depend on the processing

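The 810 genes apart at both times were 420 on log2(FPKM + 1) and 1797 at a 1.5-fold limit; other scalings, filters and prior counts gave 768 to 969, and leaving out 1 concordant library 883 to 928. Against the mean rather than the nearer concordant library the count was 1057. Calls at 3 h against control (2035) ranged from 863 to 3635 over the fits without 1 library, the highest without 3 h replicate 3. Calls at 6 h (2891) ranged from 1705 to 3872, the highest without 6 h replicate 1. Calls between 6 h and 3 h (384) ranged from 22 to 753 over the fits without 1 library and were 1034 without both divergent libraries, 14 in a fit of only the 2 groups, 855 by DESeq2 and 3155 with the split as a term, whose p-values are too small because the split was chosen from these libraries. With the replicate number as a block they were 159, and 1608 and 2605 against control at 3 h and 6 h. The labels do not say whether equal numbers share a culture. Deviations from group means cannot decide it, because at 3 h and 6 h they largely follow the divergent library. Those of same-numbered control and 3 h libraries correlated at 0.04, -0.02 and -0.03, and those of control and 6 h at -0.01, -0.02 and 0.01. Those of 3 h and 6 h correlated at -0.65, 0.60 and -0.66, and the divergent libraries, numbered 3 and 1, at 0.79. Same-numbered control and 1.5 h libraries correlated at 0.20, 0.37 and 0.45, and differently numbered ones at -0.44 to 0.30. For 1.5 h and 3 h libraries the values were 0.18, 0.17 and 0.22 with equal numbers and -0.22 to 0.20 with different ones. In a fit without 1 library the remaining group of 2 is assumed to vary like the others.

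Library-size scaling, log2(FPKM + 1) and log2(FPKM + 0.1) moved the median difference of all genes to 0.25, 0.18 and 0.23. The list medians of the unfolded protein response, proteases, oxidative phosphorylation, fatty acid genes, splicing, proteasome, proneural and progenitor factors changed sign under these scalings. Relative to the median of all genes under the same scaling, 5 of these 8 lists kept their sign under all 3. Depth limits genes under about 5 CPM.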

Other observations

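Some genes were apart at one time only. Fosb, an AP-1 subunit, was at 73.6 and 68.8 against 10.8 CPM at 3 h but at 5.23 and 5.14 against 5.56 CPM at 6 h, with controls at 0.428 to 1.32 CPM. Egr2 was at 93.6 and 98.0 against 33.0 CPM at 3 h and 25.8 and 24 against 20.5 CPM at 6 h, and Atf3, a stress factor, at 396 and 385 against 120 CPM and 114 and 123 against 99.9 CPM. Among the 3 h and 6 h libraries, the concordant 3 h libraries were the high ones for each of these genes. The divergent 3 h library lay nearer to the 6 h libraries than to the concordant 3 h ones, though for Fosb and Egr2 it was above every 6 h library. Hivep3, a zinc finger factor, was the other way, at 17.3 and 21.1 against 96.0 CPM at 3 h and 46.6 and 51.9 against 56.1 CPM at 6 h. At 6 h only, Pnrc2, a decay and nuclear receptor cofactor, was at 54.7 and 52.1 against 134 CPM, and at 79.0 and 55.6 against 74.2 CPM at 3 h. Ppargc1b, a coactivator of mitochondrial genes, was at 9.96 and 8.57 against 3.34 CPM at 6 h and at 2.65 and 3.63 against 3.76 CPM at 3 h.

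Of 17 clock genes, 1 was at least 2-fold lower at both times, against 2.22% of all genes. Both concordant libraries lay above 7 of them and below 0 of them at both times, against 34.3% of all genes each way. The median difference was -0.39, beside 0.01 for all genes. Nr1d1, a clock repressor, was at 28.6 to 34.5 CPM in controls, 182 and 171 against 38.7 CPM at 3 h, and 64.7 and 64.6 against 21.6 CPM at 6 h. Per1 was at 177 and 170 against 42.8 CPM at 3 h and 44.1 and 39.1 against 27.9 CPM at 6 h. Clock itself was at 71.3 and 63.8 against 68.2 CPM and 72.6 and 74.2 against 75.5 CPM.

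Among annotation terms of 15 to 200 tested genes, outside the cell cycle, the KEGG term for graft-versus-host disease had a median difference of 1.39, with 10 of 22 genes at least 2-fold higher, against 6.31% of all genes; it holds class I and II histocompatibility genes, whose near-identical copies make single counts uncertain. Among the lowest terms, collagen binding had 10 of 44 genes at least 2-fold lower, against 2.22% of all genes, and 1 higher (median -0.58), and ferroptosis 4 of 34 lower and 1 higher (median -0.56). The lists together hold 822 tested members, beside 9491 tested genes. Of the 599 higher genes 116 were in any of the lists used and 71 in those of the cell cycle and repair, so most of the higher genes belong to none of the lists. Of the 211 lower genes 57 were in any list and 0 in those of the cell cycle and repair.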
